A study of Arabidopsis thaliana with 3 samples.

Results

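The peaks described here are the ChIP-seq peaks that were called in the first of 2 AIPP3-4Myc libraries and in no other library. A peak of replicate 1 on chromosomes 1 to 5 was taken when it shared no base with any peak of replicate 2 and none with any peak of the untagged control. The rule kept 613 of the 926 nuclear peaks of replicate 1 (66.2%), out of 1372 nuclear peaks in the 3 lists together. Another 307 replicate 1 peaks overlapped a replicate 2 peak and no control peak and are called shared. The last 6 overlapped a control peak, and since all 6 also overlapped replicate 2, the control removed no peak from the 613. The peak calls of both AIPP3-4Myc libraries chose these groups, so the number of replicate 1-only peaks, their scores and their gaps to replicate 2 are given as descriptions without a test.

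Both groups were Arabidopsis thaliana plants of the Col-0 ecotype, sampled as 13-day-old seedlings grown in long days, and chromatin was precipitated with a Millipore antibody against the Myc epitope. According to the methods, the AIPP3-4Myc plants were T3 plants of the aipp3-1 mutant that carried tagged AIPP3 genomic DNA under its own promoter, whereas the Col-0 plants carried no tag, so the groups differed in more than the tag. There were 2 AIPP3-4Myc libraries and 1 Col-0 library. The labels give the AIPP3-4Myc libraries different short codes without saying whether these are independent lines, cultures or batches, so a transgenic line, a batch and a replicate cannot be told apart. No test between the groups was run, because the lists hold called peaks and not a value at every locus in each library, and each interval below covers counting error over peaks or genes only. Read depth is unknown because only peak lists were used, and a locus without a peak is one that did not pass the caller's threshold in that library, which does not show that AIPP3 was absent. Equally, a peak called in only 1 library does not show that AIPP3 was bound there.

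AIPP3 is a plant protein with a bromo-adjacent homology (BAH) domain that reads trimethylated lysine 27 of histone H3 (H3K27me3), the mark deposited by Polycomb repressive complexes. It acts with the PHD finger proteins AIPP2 and PAIPP2 and with CPL2, a phosphatase of the carboxy-terminal domain of RNA polymerase II. In Arabidopsis, Polycomb silencing is known for keeping developmental regulators, flowering genes and stress-inducible genes off in tissues where they are not needed, and H3K27me3 typically spreads over whole gene bodies and not only over promoters.

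The central 200 bases of the 5 replicate 1-only peaks with the highest scores among those whose midpoint lay at a protein-coding gene with a symbol are printed first, to show what kind of DNA the strongest of these peaks sit on. All sequences here are the plus strand of TAIR10.1, 5′ to 3′, and capitals mark every match, on either strand, of GAGAGA (the GAGA repeat), AAACCCTA (the telobox), CACGTG (the G-box core) and GCCGCC (the GCC box core), some of which overlapped each other. The windows lie upstream of WRKY62 (chr5:352268-352467), in coding sequence of PG1 (chr1:22248376-22248575), in an intron of CYP81F3 (chr4:17585087-17585286), across an exon and an intron of EDA8 (chr4:134384-134583), and in coding sequence of NIMIN1 (chr1:498166-498365).
WRKY62: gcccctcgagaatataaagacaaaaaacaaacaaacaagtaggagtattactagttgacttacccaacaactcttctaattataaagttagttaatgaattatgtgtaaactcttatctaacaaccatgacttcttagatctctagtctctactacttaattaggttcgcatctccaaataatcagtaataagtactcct
PG1: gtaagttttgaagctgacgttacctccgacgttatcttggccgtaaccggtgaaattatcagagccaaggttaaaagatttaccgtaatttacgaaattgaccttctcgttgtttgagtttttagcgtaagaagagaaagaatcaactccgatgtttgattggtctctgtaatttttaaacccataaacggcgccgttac
CYP81F3: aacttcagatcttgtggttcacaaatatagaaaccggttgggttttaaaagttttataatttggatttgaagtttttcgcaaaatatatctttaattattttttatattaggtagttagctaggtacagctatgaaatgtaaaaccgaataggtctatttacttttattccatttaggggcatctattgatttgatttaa
EDA8: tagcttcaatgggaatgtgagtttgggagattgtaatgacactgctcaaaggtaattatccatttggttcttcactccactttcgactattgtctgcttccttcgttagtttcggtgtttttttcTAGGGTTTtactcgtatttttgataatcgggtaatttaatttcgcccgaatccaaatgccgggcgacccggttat
NIMIN1: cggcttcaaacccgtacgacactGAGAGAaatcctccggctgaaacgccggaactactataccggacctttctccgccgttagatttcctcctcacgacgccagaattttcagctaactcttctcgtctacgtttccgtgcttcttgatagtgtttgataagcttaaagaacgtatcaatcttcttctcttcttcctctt
Of these 5 windows, those of WRKY62, PG1 and CYP81F3 held none of the 4 motifs, that of EDA8 held 1 telobox and that of NIMIN1 held 1 GAGAGA.

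Shorter windows of 120 bases, chosen after the values were seen, show the places where motif matches stood closest together within the central 1 kb of a replicate 1-only peak. They lie in LBD40 (chr1:25054526-25054645), MGL (chr1:24029887-24030006) and GATL2 (chr3:18868465-18868584) for CACGTG, in AGP11 (chr3:259270-259389) for GCCGCC and in FUS3 (chr3:9855452-9855571) for GAGAGA.
LBD40: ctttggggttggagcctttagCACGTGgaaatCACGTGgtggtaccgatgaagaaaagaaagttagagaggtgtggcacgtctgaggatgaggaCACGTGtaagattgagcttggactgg
MGL: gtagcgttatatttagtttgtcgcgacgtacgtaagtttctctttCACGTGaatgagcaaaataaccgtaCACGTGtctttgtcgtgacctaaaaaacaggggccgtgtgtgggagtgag
GATL2: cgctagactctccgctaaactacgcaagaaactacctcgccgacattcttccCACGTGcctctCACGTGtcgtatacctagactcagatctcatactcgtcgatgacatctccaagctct
AGP11: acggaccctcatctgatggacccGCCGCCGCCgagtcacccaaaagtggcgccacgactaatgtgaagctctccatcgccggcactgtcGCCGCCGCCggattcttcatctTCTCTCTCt
FUS3: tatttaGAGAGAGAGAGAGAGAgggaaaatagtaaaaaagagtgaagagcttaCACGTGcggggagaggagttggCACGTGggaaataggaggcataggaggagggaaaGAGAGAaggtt
The windows of LBD40, GATL2 and AGP11 were coding over all 120 bases, whereas 66 bases of the FUS3 window and 20 of the MGL window were coding and the others intronic. LBD40 encodes a LOB-domain transcription factor, MGL methionine gamma-lyase, GATL2 a galacturonosyltransferase-like protein, AGP11 an arabinogalactan protein of pollen, and FUS3 a B3-domain regulator of seed maturation.

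The scores of the replicate 1-only peaks lay close to the calling threshold. The score is that of MACS, −10 times the log10 of the p-value, and its floor of 50 stands for a p-value of 1e-05. Among the 613 peaks the lowest score was 50, the median 65.4 and the highest 369, and 219 peaks (35.7%) scored under 60. A score of at least 100 was reached by 84 peaks (13.7%) and one of at least 200 by 5. The shared peaks had a median score of 98.3 in the same list. The replicate 1-only peaks were 908 to 4486 bp wide with a median of 1602 bp, against a median of 1885 bp for the shared peaks, and covered 1071 kb. These differences in score and width are among the values the choice by overlap selected on, and nothing is read from them.

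The highest-scoring of these peaks lay on WRKY62, at chr5:350773-353963 with a score of 369. WRKY62 encodes a transcription factor of defence signalling. The peak covered the whole gene, its midpoint lay 273 bp upstream of the transcription start site (TSS), and the nearest replicate 2 peak was 3.94 kb away. PG1, annotated as a polygalacturonase, followed with a score of 224, with the midpoint in coding sequence and a gap of 190.0 kb to replicate 2. CYP81F3 scored 221 at a gap of 41.4 kb and encodes a cytochrome P450 of the subfamily that modifies indole glucosinolates. AT4G38340, an RWP-RK family regulator, scored 218, and AT2G15880, which encodes a leucine-rich repeat protein, scored 202 at a gap of 464 kb. These 5 peaks were the only ones above 200.

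The next 7 by score were more mixed in kind. EDA8, which is annotated as a putative membrane lipoprotein, scored 169, the UDP-glycosyltransferase gene AT2G22590 scored 167, and NIMIN1 scored 165. NIMIN1 encodes a protein that binds NPR1, the salicylic acid coactivator. OPS, which encodes OCTOPUS, a regulator of phloem differentiation, scored 157. AT4G16545 (an HSP20-type protein) and AT1G44740 (uncharacterised) both scored 156, and AT5G23950 (a calcium-dependent lipid-binding protein) scored 153. Of the 12 highest peaks, 6 had their midpoint in coding sequence, 5 in an intron and 1, that on WRKY62, upstream of the gene.

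**Figure D1:**
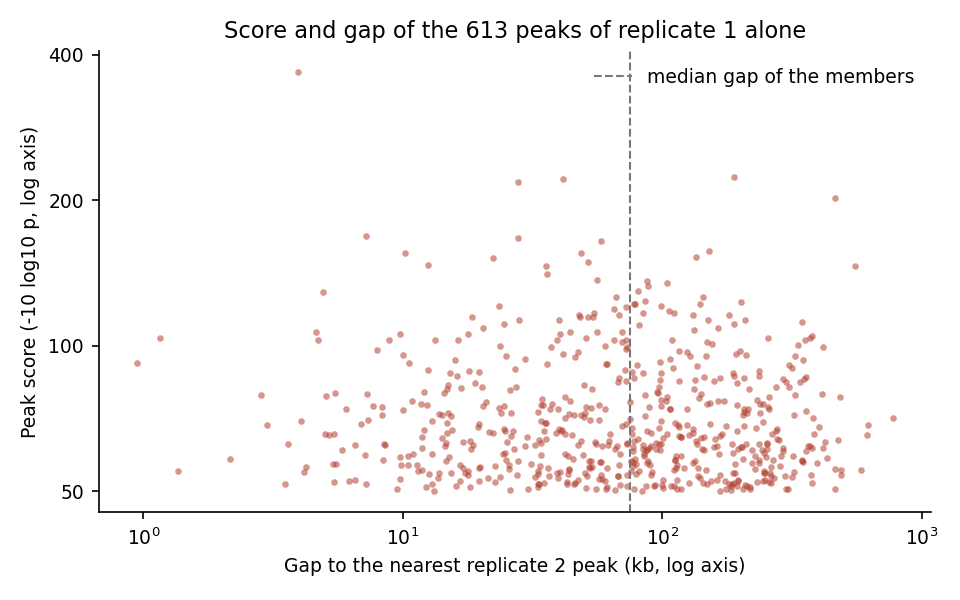
Score of each of the 613 replicate 1-only peaks (y axis, −10 log10 p, log axis) against the gap to the nearest replicate 2 peak (x axis, kb, log axis), with 1 point per peak and a dashed line at the median gap of 75.3 kb. Most points sit between 50 and 100 on the score axis at every gap, and the single point above 300 is the WRKY62 peak at 3.94 kb.

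Most replicate 1-only peaks were far from any replicate 2 peak. The gap between the nearest edges had a median of 75.3 kb with quartiles of 27.7 and 167 kb, and ranged from 0.940 to 779 kb. Only 1 peak lay within 1 kb of a replicate 2 peak, 3 within 2 kb, 15 within 5 kb (2.45%) and 48 within 10 kb (7.83%), while 240 (39.2%) were more than 100 kb away and 51 more than 300 kb. Few of these peaks were therefore close neighbours of a replicate 2 call. Replicate 2 held only 430 nuclear peaks, and wide gaps were not particular to the replicate 1-only peaks. Shared peaks lay a median of 101 kb from the next shared peak, with 6.84% of them within 10 kb. Peaks just inside the rule lay on HAM3 (score 92.1, gap 940 bp), which encodes a GRAS-family factor that maintains shoot stem cells, on the non-coding RNA gene AT1G08775 beside TRM33 (score 104, gap 1163 bp) and on AT1G18310, a glycosyl hydrolase gene (score 55.0, gap 1355 bp). Peaks just outside it, counted as shared, lay on the beta-amylase gene BAM1 (overlap of 286 bp, score 116), on GH3.1 (638 bp, score 84.2) and on AT3G62530 (803 bp, score 56.8). The farthest from replicate 2 lay on AT2G03550, an alpha/beta hydrolase gene (779 kb, score 70.8), on AT1G04560 (624 kb, score 68.6) and on AIR3, a subtilisin-like protease gene (618 kb, score 65.4).

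The gap did not sort the scores. With the peaks in 4 like-sized classes by score, the median gap was 73.2 kb in the lowest class (scores 50 to 56.5), 84.4 and 57.3 kb in the middle classes, and 72.8 kb in the highest (82.4 to 369). The share with the midpoint within 1 kb of a TSS went from 78.6% in the lowest class to 73.2% in the highest, while the share covering a TSS was 70.1% in the lowest and 76.5% in the highest. Transcription factor genes made up 7.83% of the protein-coding genes under peaks of the lowest class, and for the highest class their share was 7.23%.

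The replicate 1-only peaks were spread over all chromosomes, with 156 on chromosome 1, 88 on 2, 119 on 3, 106 on 4 and 144 on 5, which is 4.47 to 5.70 per Mb and 62.2% to 69.2% of the replicate 1 peaks of each chromosome. Another replicate 1-only peak lay within 10 kb of 91 of them (14.8%), and a shared peak within 10 kb of 40. Pairs of neighbours included FRO2, a root ferric reductase gene (score 107), 5996 bp from the peak on CYP86A4 and GPAT4 (score 75.3), and GA2OX6 (score 126), 6784 bp from NIMIN1 (score 165).

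The position relative to genes was measured from the peak midpoint. Of the 613 peaks, 563 (91.8%) had the midpoint in a gene body: 425 in coding sequence (69.3%, Wilson 95% interval 65.6 to 72.9), 78 in an intron (12.7%), 50 in an untranslated region (8.16%) and 10 in a non-coding gene or pseudogene. A further 43 (7.01%, 5.25 to 9.32) lay in the 1 kb upstream of a gene and 7 elsewhere. For the shared peaks coding sequence held 75.2% and the upstream 1 kb held 2.93% (1.55 to 5.48). The upstream share of the replicate 1-only peaks was higher by counts, with intervals that overlapped over a narrow range, and the difference was not tested.

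Distances to the TSS were taken to the nearest protein-coding TSS, which was not always that of the gene under the peak. For the peak on PG1 the distance was -1065 bp, although its midpoint lay in coding sequence of PG1. The median midpoint was 591 bp downstream of the nearest protein-coding TSS, against 815 bp for the shared peaks and 802 bp for the 113 peaks found in replicate 2 alone. Within 1 kb of a TSS on either side lay 464 midpoints (75.7%, 72.1 to 78.9), against 68.1% (62.7 to 73.0) of the shared peaks. The first 500 bp after the TSS held 150 midpoints (24.5%, 21.2 to 28.0), more than the 11.4% (8.31 to 15.4) of the shared peaks, and these intervals did not overlap. The next 500 bp held 41.4% of the replicate 1-only and 50.8% of the shared midpoints, positions beyond 1 kb held 18.6% and 27.7%, and positions upstream of the nearest TSS 15.5% and 10.1%. WRKY62, with its midpoint upstream, belongs to the last of these classes, NIMIN1 (273 bp downstream of its TSS) to the first, AT2G22590 (694 bp) to the second and CYP81F3 (1195 bp) to the third.

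Peak width moved with these positions, so the comparison was repeated, after the values were seen, over peaks of 1400 to 2000 bp in both sets. Among 245 replicate 1-only peaks of that width, 18.4% (14.0 to 23.7) had the midpoint in the first 500 bp, against 8.13% (4.48 to 14.3) of 123 shared peaks. Upstream of the nearest TSS lay 12.7% (9.06 to 17.4) and 3.25% (1.27 to 8.06). The share within 1 kb of a TSS was 83.3% (78.1 to 87.4) against 85.4% (78.1 to 90.5), so this last difference was not seen at like width. The median midpoint of these narrower sets was 649 and 790 bp after the TSS.

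Peak cover of the gene ends was counted for both sets. A TSS lay under 439 replicate 1-only peaks (71.6%, 67.9 to 75) and 70% of the shared peaks. A transcription termination site (TTS) lay under 278 (45.4%, 41.5 to 49.3) and 53.7% of the shared peaks, and between peaks of 1400 to 2000 bp these shares were 40% and 40.7%. Both ends of 1 gene were covered by 186 peaks (30.3%), among them those on WRKY62, CYP81F3 and NIMIN1, whereas 111 (18.1%) covered neither a TSS nor a TTS, as on AT2G15880. In 79 (12.9%) 2 or more TSSs were covered, against 8.14% of the shared peaks. The widest were those over AT2G41800 and AT2G41810, a pair of neighbouring genes of the DUF642 family (4486 bp, score 53.7), over GA2OX6, which encodes a gibberellin-inactivating oxidase (4285 bp, score 126), and over TIC, a clock regulator gene (4109 bp, score 65.8).

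Along genes scaled to the same length, peak cover was averaged over the 903 protein-coding genes of at least 500 bp with a replicate 1-only peak and the 466 with a shared peak. The first 5 of the 20 bins of the body were covered in 62.3% of the genes with a replicate 1-only peak and in 62.7% of those with a shared peak. In the middle the values were 56.2% and 63.6%, and in the last 5 bins 42.4% and 54.6%. Before the gene the order was the other way, with 52.4% and 45.7% in the last 100 bp before the TSS, 30.5% and 26.2% at 1 kb before it, and 60% and 54.7% in the first bin of the body. Cover by replicate 1-only peaks was higher up to the second bin of the body (62.9% and 61.8%). It was lower from the third bin on (63.0% and 65.0% there), alongside the difference in width already given.

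**Figure D2:**
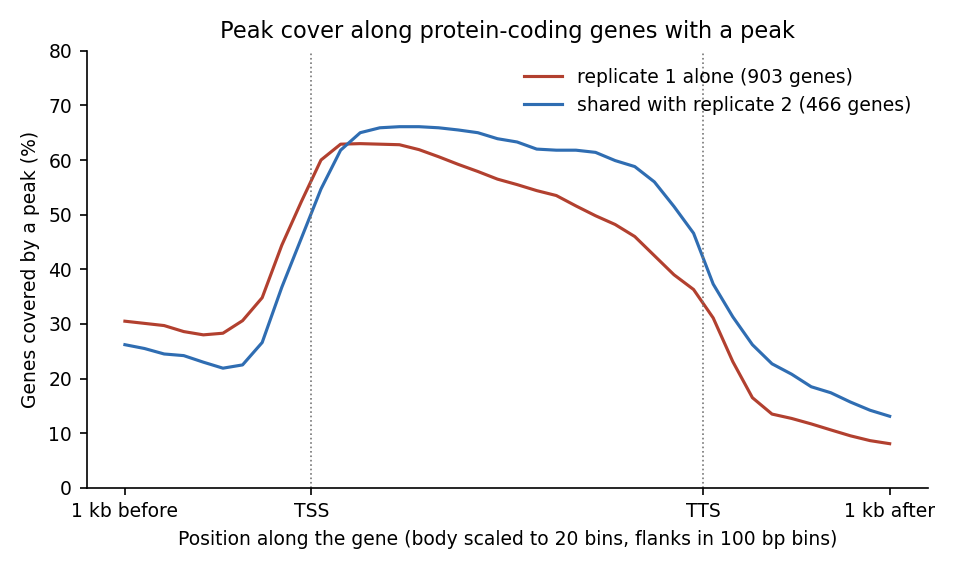
Share of protein-coding genes covered by a peak (y axis, %) along the gene body scaled to 20 bins and 1 kb on each side in 100 bp bins (x axis), for genes with a replicate 1-only peak (red) and with a shared peak (blue). The red line lies above the blue one before the TSS (52.4% and 45.7% in the last 100 bp) and below it towards the TTS, where the last 5 bins were covered in 42.4% and 54.6% of the genes.

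The 613 peaks touched the target region, from 1 kb upstream of the TSS to the TTS, of 1049 genes (2.77% of the 37899 annotated on chromosomes 1 to 5). Of these genes 926 were protein-coding (3.37% of 27444), whereas shared peaks touched 471 protein-coding genes (1.72%). The target region of 1 protein-coding gene was touched by 332 peaks, of 2 by 212, of 3 by 54, and of none by 11. A replicate 2 peak lay in the target region of 3 of the 1049 genes (0.286% of these and 0.418% of the genes with a replicate 2 peak), AT1G08775, AT1G18310 and AT5G39570, and 9 genes carried more than 1 replicate 1-only peak, CYP79B3 among them. Of the 1049 genes, 2 also carried a shared peak, and the rule on overlap in large part fixes both small numbers.

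Structure and biotype of the genes were set beside those under shared peaks. Genes with a single exon made up 32.0% (29.0 to 35.0) of the protein-coding genes under replicate 1-only peaks and 29.3% (25.4 to 33.6) of those under shared peaks, against 18.9% of all protein-coding genes. The median gene length was 1946 bp and 1938 bp, against 2078 bp over all. Pseudogenes were 2.76% (1.93 to 3.94) and 3.07% (1.92 to 4.86) of the touched genes, against 12.8% of the annotation, and long non-coding RNA genes 5.72% and 6.50%, against 9.18%. No gene annotated by name as a transposable element lay under a replicate 1-only peak, of 100 annotated. A gene symbol, which stands for how well a gene has been studied, was held by 40.3% of the genes under replicate 1-only peaks and 52.0% of those under shared peaks, against 37.8% of all.

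By function, 36 lists of genes were read from product names or symbols, and up to 4 genes a list are named in the order of their peak scores. Genes named beyond those 4 (ESR1, AGL44, PID, IAA2, CYP81F4, CYP86A8, CYP86A1, EXPA1, AMT1;1, AMT1;2 and NRT1.1) were chosen after their values were seen. Transcription factor genes made up 67 of the 926 protein-coding genes (7.24%, 5.74 to 9.09), 42 of the 471 under shared peaks (8.92%, 6.66 to 11.8) and 4.95% of all protein-coding genes. The AP2/ERF and B3 genes were the most frequent class relative to their number, with 18 of 156 under replicate 1-only peaks and 9 under shared peaks, which is 1.94% and 1.91% of the genes in each set against 0.568% of all. Among the 18 were ERF10 (score 100.4, gap 334 kb), NGA4 (84.7), which acts in leaf and style growth, FUS3 (72.0, gap 205 kb) and ABS2 (67.2), the last 3 being B3-domain genes that the product names place in this list. ESR1, an AP2 gene of shoot regeneration, also carried a peak (score 51.2).

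Other transcription factor families had members in both sets. For the WRKY genes (0.262% of all protein-coding genes), 6 of 72 lay under replicate 1-only peaks (0.648% of their genes), WRKY62 (369), WRKY28 (86), WRKY48 (79.8) and WRKY11 (71.5) with the highest scores, and another 6, among them WRKY17 and WRKY33, under shared peaks (1.27%). MYB15 (score 103), MYB47 (92.0), MYB11 (66.1), which activates flavonol synthesis, and MYB77 (59.7) led the 10 of 273 MYB-list genes, which were 1.08% of the genes under replicate 1-only peaks against 0.995% of all, near the background. Developmental regulators among the genes under replicate 1-only peaks included CUC2 (score 68.0, gap 404 kb), which sets organ boundaries, SPCH (58.2, gap 268 kb), which starts the stomatal lineage, and LAS (70.2), a GRAS gene needed for axillary meristems. In the MADS-box and homeobox list 9 of 203 genes had a replicate 1-only peak (0.972%, against 0.740% of all). HB23 (116), AGL93 (116), ANL2 (98.7), a regulator of epidermal pigment, and AGL101 (95.4) had the highest scores. For AGL93 and AGL101 the peak midpoint lay upstream, at -1477 and -1344 bp from the TSS. Lower in the list stood AGL44 (58.6), also known as ANR1, which acts in nitrate-dependent root growth. For NAC genes the counts were 3 of 118 under replicate 1-only peaks (0.324%) and 6 under shared peaks (1.27%), the latter with NAC019 and ATAF1, against 0.430% of all.

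Clock and flowering genes were found in both sets at low counts, 4 of 48 under replicate 1-only peaks (0.432%) and 3 under shared peaks (0.637%), against 0.175% of all. The list does not hold TIC, the clock regulator gene under a wide peak described above. The 4 were TSF (score 68.8, gap 153 kb), the closest relative of the florigen gene FT, PRR5 (62.0), a clock repressor, FKF1 (55.3), a blue-light receptor of the photoperiod pathway, and RVE8 (54.6), with the peak midpoint at -1632 bp from the TSS, which is upstream. All 4 scores were below 70, near the threshold. Auxin genes counted 7 of 189 under replicate 1-only peaks (0.756%, against 0.689% of all, near the background) and 4 under shared peaks (0.849%). PIN3 (90.1, gap 318 kb) encodes an auxin efflux carrier, and WAG2 (126) and PID (60.8) encode kinases that act on such carriers. ARF10 (60.9) and IAA2 (51.2) belong to the auxin response machinery.

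The lists for hormone and stress responses separated the sets most by count, and these lists had been chosen with earlier results on these peaks known, so their counts are not independent support. Jasmonate genes counted 1 of 37 under replicate 1-only peaks, CYP94B1 (score 68.7), which oxidises the active hormone, against 9 under shared peaks with CYP94B3, OPR3, LOX4 and JAZ5. As shares of the protein-coding genes these were 0.108% (0.0191 to 0.609) and 1.91% (1.01 to 3.59), against 0.135% of all, so the shared set stood above the background and the replicate 1-only set near it. Touch, calcium and early defence genes counted 4 of 45 against 17, which is 0.432% (0.168 to 1.11) and 3.61% (2.27 to 5.70), against 0.164% of all. The 4 were CYP81F2 (97.8), CML38 (88.9), a calmodulin-like gene, ATL2 (74.0) and YLS9 (56.8), whereas the shared peaks held PHI-1, TCH2, SZF1 and PUB23. Abscisic acid, dehydration and cold genes counted 4 of 49 (0.432%) against 11 (2.34%), with 0.179% of all. The 4 were HAI2 (117), which encodes a protein phosphatase 2C, NCED6 (84.6), of abscisic acid synthesis, CYP707A1 (82.4), of its breakdown, and the zinc-finger gene ZF2 (63.9). In these 3 lists the intervals of the 2 sets did not overlap.

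Among enzymes, cytochrome P450 genes counted 15 of 248 under replicate 1-only peaks (1.62%) and 8 under shared peaks (1.70%), against 0.904% of all protein-coding genes. The highest scores among them were those of CYP81F3 (221) and CYP79B3 (141), which makes indole-3-acetaldoxime from tryptophan. CYP81F2 (97.8) and CYP81F4 (82.9) also carried such peaks, that on CYP81F4 with its midpoint 2774 bp from the TSS, past the gene end. Of the same indole pathway, CYP83B1 (222) and CYP79B2 (83.4) lay under shared peaks, named after their values were seen. The CYP86A fatty acid hydroxylases, which make cutin and suberin monomers, had replicate 1-only peaks on 4 of 5 genes: CYP86A2 (86.5), CYP86A4 (75.3), CYP86A8 (63.6) and CYP86A1 (55.6), and the remaining gene, CYP86A7, had a shared peak with a score of 194. The peak on CYP86A4 also touched GPAT4, an acyltransferase of cutin synthesis. The cutin and wax list counted 5 of 55 (0.540%, against 0.2% of all), 1 of which was FDH matched by symbol to formate dehydrogenase, which is no cutin enzyme. The CYP86A family was chosen after values were seen, as were the families of the next paragraph.

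A matrixin is a zinc metalloproteinase of the cell surface. All 4 genes with matrixin in the product name carried a replicate 1-only peak and no shared peak: AT4G16640 (score 146), AT2G45040 (113), AT1G24140 (113) and AT1G59970 (59.0), and each has a single exon. Families here were matched by words in the product name, so genes of the same class under another name were not counted. Glyoxal oxidase genes had 3 of 7, led by AT1G75620 (86.6), and ovate family genes 4 of 18, led by OFP15 (74.8), with no shared peak in either family. Genes with GRAS in the product name had 5 of 25, with HAM3 and LAS, against 2 under shared peaks. This count leaves out RGL3, a DELLA gene of the same family described below, whose product name lacks the word. Arabinogalactan protein genes had 9 of 57 against 3, with AGP3 (149), SOS5 (106), FLA2 (96.2) and AGP11 (91.6). Of the 9 dehydrin genes none had a replicate 1-only peak and 3 had a shared peak. Over all protein-coding genes, 3.37% had a replicate 1-only peak and 1.72% a shared peak. With only 9 dehydrin genes, a count of none under replicate 1-only peaks is near the first share. In the small matrixin, glyoxal oxidase and ovate families, a count of no shared peak is likewise near the second. Other families stood near the first share too, with 23 of 653 F-box genes (3.52%) and 10 of 302 tetratricopeptide repeat genes (3.31%) under replicate 1-only peaks.

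Cell wall genes as a list counted 28 of 488 under replicate 1-only peaks (3.02%, 2.10 to 4.34) and 21 under shared peaks (4.46%, 2.93 to 6.72), against 1.78% of all protein-coding genes. PG1 led the list by score, and EXPA1 (69.1), an expansin that loosens the wall, stood lower in it. Transporter genes counted 34 of 861 (3.67%, 2.64 to 5.09) and 20 (4.25%), against 3.14% of all, near the background. They included DIC3 (133), a mitochondrial dicarboxylate carrier, ALMT12 (103), a guard cell anion channel, AMT1;1 (89.2) and AMT1;2 (64.9), both ammonium transporters, and NRT1.1 (50.7), the nitrate transceptor, close to the threshold. Protein kinases and phosphatases counted 23 of 802 (2.48%, against 2.92% of all), with MAPKKK18 (146, gap 554 kb), a kinase of abscisic acid signalling, at the top. F-box, RING and U-box genes counted 44 of 1222 (4.75%, against 4.45% of all), with SLY2 (86.2), an F-box gene of gibberellin signalling. RGL3 (111), a DELLA gene, and GA2OX6 (126) were 2 of the 3 genes of the light, gibberellin and brassinosteroid list, which is 0.324% against 0.222% of all.

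Ribosomal protein genes counted 3 of 344 under replicate 1-only peaks (0.324%, 0.110 to 0.948) and 2 under shared peaks, against 1.25% of all protein-coding genes. RNA binding and splicing genes counted 6 of 427 (0.648%, 0.297 to 1.41) and 8 under shared peaks (1.70%, 0.863 to 3.32), against 1.56% of all. Photosynthesis genes counted 4 of 92 (0.432%, against 0.335% of all), ELIP2 (86.3), PSB27 (64.1), CLH1 (61.3) and LHCB4.3 (59.9). Histone and chromatin genes counted 4 of 207 (0.432%, against 0.754% of all), with the histone H2B gene HTB1 (152) at the top. In the plot of gene lists the intervals of the 2 sets overlapped in every list other than the jasmonate, abscisic acid and touch lists, which does not show that the shares are equal.

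**Figure D3:**
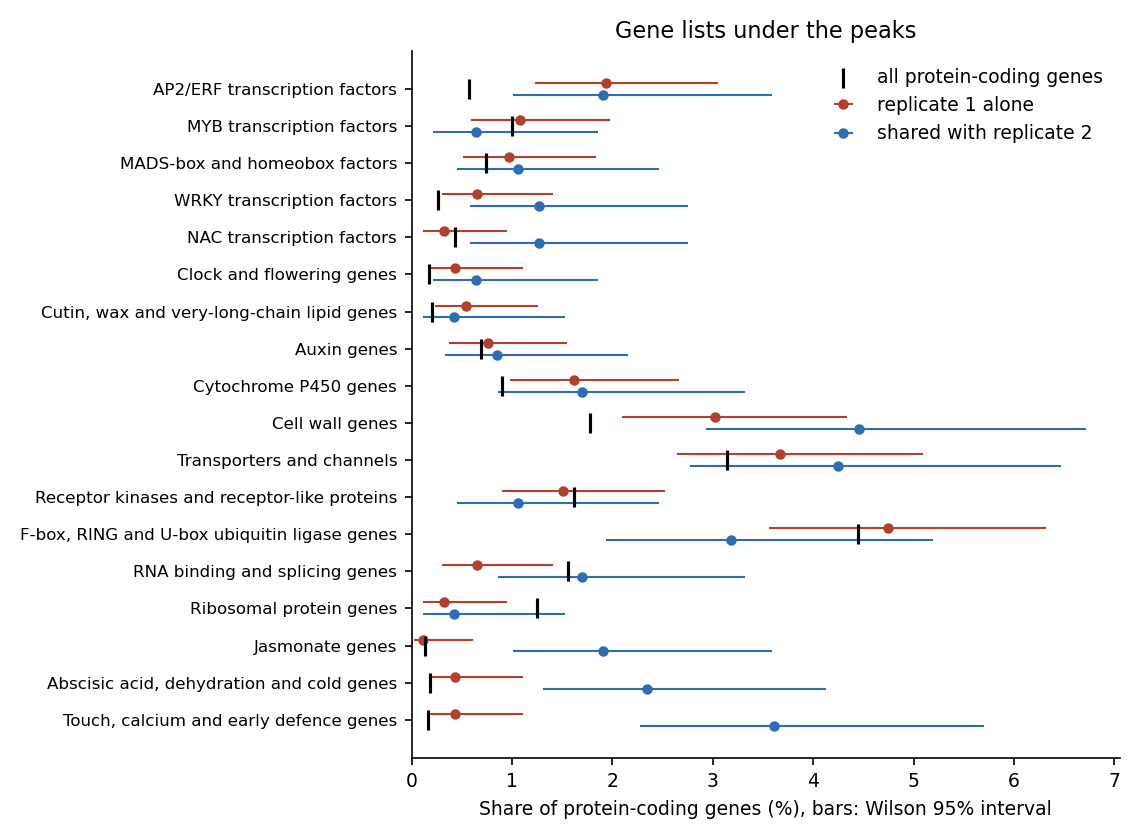
Share of protein-coding genes that belong to each of 18 gene lists (x axis, %), for the 926 genes under replicate 1-only peaks (red), the 471 under shared peaks (blue) and all protein-coding genes (black ticks), with Wilson 95% intervals as bars. AP2/ERF genes stand at 1.94% and 1.91% in the 2 sets, whereas touch, calcium and early defence genes stand at 0.432% and 3.61%.

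The base composition under the peaks was alike in the 2 sets. The GC share was 40.3% under replicate 1-only peaks and 40.4% under shared peaks, against 36.0% over all 1 kb tiles of the chromosomes and 39.6% in tiles centred on coding sequence. Motifs were counted by letters on both strands in the central 1 kb of each peak, with overlapping matches included. A comparison set of 27444 windows of 1 kb, each centred 600 bp downstream of a protein-coding TSS, was added after the values were seen, because the median midpoint lay at 591 bp. The GC share of these windows was 38.9%, against 42.4% in the central 1 kb of replicate 1-only peaks. Motif shares were not adjusted for this difference, and its part in them was not tested. The windows lie wholly downstream of the TSS, whereas 15.5% of replicate 1-only and 10.1% of shared midpoints lay upstream of the nearest TSS. The positions compared were therefore not alike. A match is a description of the letters and not a bound site.

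CACGTG, the core of the G-box that bHLH and bZIP factors recognise, was found in the central 1 kb of 188 replicate 1-only peaks (30.7%, 27.1 to 34.4) and in 30% (25.1 to 35.3) of the shared peaks. It was found in 9.58% of the windows 600 bp downstream of all TSSs, in 15.5% of such windows in single-exon genes, in 9.69% of coding tiles and in 10.3% of all tiles. Over the whole peaks, 275 (44.9%) held at least 1 match, 114 (18.6%) at least 2 and 51 (8.32%) at least 3. The peak on AT3G48510 (score 65.8) held the most, 6, and those on CYP86A2, on CYP86A4 and GPAT4, and on AT4G12290 (score 129) held 5 each. The printed LBD40 window holds 3 of them within 120 bases.

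The matches were concentrated under the peaks. In 200 bp bins around the midpoints of replicate 1-only peaks, CACGTG occurred 0.432 to 0.481 times per kb within 400 bp of the midpoint and 0.139 to 0.212 times per kb beyond 1.2 kb. Around positions 600 bp downstream of all TSSs it was 0.112 to 0.117 times per kb within the same 400 bp. These were low values of that comparison, which reached 0.213 and 0.225 times per kb in the bins centred at -700 and 700 bp. Of the 468 matches under replicate 1-only peaks, 280 (59.8%) lay in coding sequence and 86 (18.4%) in the 1 kb upstream of a gene, against 29.3% and 23.6% of the 14508 matches on chromosomes 1 to 5. The peaks themselves sat mostly in coding sequence (69.3% of midpoints), so neither this comparison nor the next is at like position. The flanking bases differed too: CCACGTGG made up 16.0% of the matches under replicate 1-only peaks and 13.4% of those under shared peaks, against 7.91% over the chromosomes, and ACACGTGG or its reverse complement 23.9% and 24.1% against 17.6%.

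**Figure D4:**
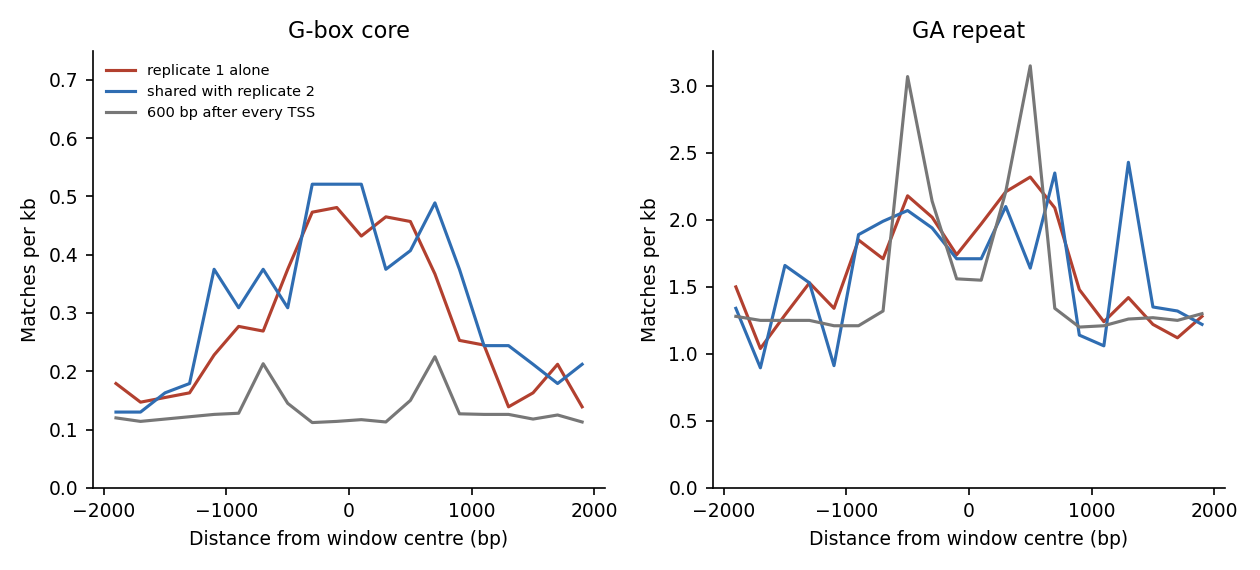
Matches per kb (y axes) of the G-box core (left) and the GA repeat (right) in 200 bp bins by distance from the midpoint of replicate 1-only peaks (red), of shared peaks (blue) and from positions 600 bp downstream of every protein-coding TSS (grey). The G-box core stands at 0.432 to 0.481 per kb near the midpoint of replicate 1-only peaks. Its grey line stands at 0.112 to 0.117 there and reaches 0.225 in the bin centred at 700 bp. The GA repeat lies near or below the grey line at its highest points.

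GCCGCC, the core of the element that ERF factors recognise, was found in 36.9% (33.1 to 40.8) of the replicate 1-only peaks and 41.4% (36.0 to 47.0) of the shared peaks, against 19.6% of the windows downstream of all TSSs and 23.4% of those in single-exon genes. GAGAGA was found in 75.4% and 75.2% of the peaks, but also in 73.8% of the windows downstream of TSSs, so its share was near that of any gene start, although all tiles (58.7%) and coding tiles (65.6%) held it less often. AAACCCTA was found in 16.3% and 14.0%, below the 20% of those windows and above the 11.7% of all tiles. TGGGCC was found in 22.8% (19.7 to 26.3) and 16.9% (13.2 to 21.5), against 9.28% of those windows and 14.1% of all tiles. CATGCA was found in 31.8% and 29.3%, which was above the 25.3% of those windows and below the 33.4% of all tiles. TTGACC, the core of the W-box that WRKY factors recognise, was found in 37.8% and 39.4%, against 32.5% of those windows and 33.9% of all tiles. In promoters (250 bases before to 50 after the TSS), CACGTG was found in 13.2% of the 523 under replicate 1-only peaks, 17.3% of those under shared peaks and 7.70% of all, while GAGAGA was found in 29.1%, 25.5% and 29.4%, TGGGCC in 16.1%, 14.8% and 15.5%, and CATGCA in 16.6%, 12.3% and 9.76%. GCCGCC was found in 1.91%, 2.06% and 2.61% of these promoters, so it was not more frequent in promoters under the peaks. AAACCCTA was found in 5.54%, 2.47% and 6.26%, and TTGACC in 15.3%, 17.3% and 14.2%.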

How the data were processed

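ChIP-seq of 2 AIPP3-4Myc libraries and 1 Col-0 library was used as the deposited peak lists, 1 list per library, with 933, 437 and 26 peaks, of which 926, 430 and 16 lay on chromosomes 1 to 5. Per the labels and the methods, the authors mapped reads to TAIR10 with Bowtie2 2.2.8 and called peaks in each library with MACS 1.4 at default settings. Each deposited peak carries a score, −10 times the log10 of its p-value, and scores were compared within replicate 1 only. Whether MACS was given a control library is not given in the sources used here, and read depth is unknown.

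Peaks with at least 1 bp in common were counted as shared. Genes, exons and bases came from the RefSeq annotation of TAIR10.1, whose chromosome lengths held all 1372 nuclear peaks. Target regions ran from 1 kb upstream of the TSS to the TTS, as in the study. Without a strand in the peaks, overlapping and antisense genes cannot be told apart. Shares carry Wilson 95% intervals, which cover counting error only. Python 3.11.15, numpy 2.4.6, pandas 2.3.3 and scipy 1.17.1 were used, and the overlap, gap and motif code was tested on simulated data. Members, gene lists and motifs were chosen with earlier results of these data known. Named peaks were the 12 highest by score, the 3 nearest to and farthest from replicate 2 and the 3 widest. Named genes were up to 4 per list with a symbol, by score. Alternatives covered the score minimum, the overlap rule, the use of replicate 2 and Col-0, the gene assignment, the reference point, the central 1 kb and, chosen after seeing the data, peak width.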

Additional observations from a re-analysis of the deposited data

How the results depend on the processing

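The choice of peaks rested on the calling threshold in both libraries, and no further replicate was at hand. Of 97 values under alternatives, 69 stayed within counting error of the main value or, for counts and gaps, within 1.5 times of it. With a score of at least 100, 84 peaks and 139 genes were left, 70.2% of midpoints lay within 1 kb of a TSS, 77.4% of peaks covered a TSS and 53.6% a TTS, the GC share was 41.0% and GAGAGA stood at 2.28 per kb. Without AIPP3-4Myc replicate 2 there were 920 peaks on 1601 genes. The peaks of replicate 2 alone numbered 113 on 173 genes, with 96.5% of midpoints in a gene body, 59.3% within 1 kb of a TSS, a TSS and a TTS under 40.7% each, pseudogenes at 0.578% of genes and AAACCCTA at 0.139 per kb. With both peak ends in place of the midpoint, 26.9% lay in gene bodies and 35.7% within 1 kb of a TSS. With replicate 2 peaks under a score of 100 ignored, the median gap was 273 kb. Taking only the gene at the midpoint gave 584 genes, 10% transcription factors and 1.37% pseudogenes, and gene body overlap gave 1.73% pseudogenes. The central 1 kb had a GC share of 42.4% and 2.05 GAGAGA per kb. Peaks of 1400 to 2000 bp, an alternative chosen after seeing the data, gave 83.3% within 1 kb of a TSS and 40% covering a TTS. The cause of these shifts was not tested, apart from the smaller number of peaks that a stricter score leaves by construction. No gap to replicate 2 could be given where replicate 2 was left out or was the list itself.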
